A study of Homo sapiens with 6 samples.

Results

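CA12 and BNIP3 are 2 of the 1705 genes in a table that compares a gefitinib-resistant lung adenocarcinoma line with its parent. They were taken by gene symbol from that table, and each symbol occurs there once, as a protein-coding gene. The resistant line, PC9-GR, and the parental line, PC9, gave 3 RNA libraries each, and both carry the EGFR exon 19 deletion that makes PC9 cells sensitive to EGFR inhibitors. PC9-GR was raised by stepwise exposure to gefitinib, an inhibitor of the EGFR kinase, with doses between 0.5 and 10 µM. It was then maintained at 10 µM, and spent 7 days without the drug before RNA was taken. The parental line is labelled only as such, the 3 libraries of each line came from independent cultures, and the labels describe no low-oxygen step for either line. A single resistant line was sampled, so resistance and any other difference between these 2 lines cannot be told apart. In bulk RNA, fewer cells of a kind and less RNA per cell cannot be told apart either.

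CA12 and BNIP3 are both known targets of the hypoxia-inducible factors (HIFs). In well-oxygenated cells prolyl hydroxylases mark the HIF alpha subunits for destruction, and when oxygen is short these subunits accumulate, pair with ARNT and bind a short core motif near their target genes. CA12 encodes carbonic anhydrase XII, an enzyme anchored in the plasma membrane with its active site outside the cell, where it interconverts carbon dioxide and bicarbonate and so affects the pH around the cell. In breast cancer cells it is also a target of the oestrogen receptor. BNIP3 encodes a protein of the outer mitochondrial membrane related to the BCL2 family, which binds ATG8 proteins on forming autophagosomes and so marks mitochondria for removal (mitophagy).

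The 250 bases upstream of each gene's RefSeq start (GRCh38.p14) are shown because both genes are described as HIF targets and both were higher in PC9-GR. Capitals mark ACGTG or GCGTG, both forms of the HIF core motif, read on either strand. The CA12 window is chr15:63381847-63382096 and the BNIP3 window is chr10:131981924-131982173, and both genes lie on the minus strand, so each sequence is printed 5′ to 3′ in the direction of its gene.
CA12: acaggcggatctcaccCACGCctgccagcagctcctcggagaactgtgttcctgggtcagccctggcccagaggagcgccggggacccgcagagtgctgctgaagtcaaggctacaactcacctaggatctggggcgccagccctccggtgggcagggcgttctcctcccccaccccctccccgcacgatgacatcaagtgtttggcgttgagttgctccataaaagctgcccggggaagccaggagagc
BNIP3: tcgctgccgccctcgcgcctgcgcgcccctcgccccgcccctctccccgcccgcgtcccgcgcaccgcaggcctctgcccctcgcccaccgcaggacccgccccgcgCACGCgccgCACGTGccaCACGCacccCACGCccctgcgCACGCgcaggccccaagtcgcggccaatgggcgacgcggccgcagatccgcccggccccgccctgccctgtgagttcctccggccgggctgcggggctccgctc
The BNIP3 window held 6 matches and the CA12 window held 1. In BNIP3, a single palindrome that starts 134 bases before the gene's start accounts for both ACGTG matches, one on each strand, and 4 GCGTG matches on the opposite strand surround it. The CA12 match is a GCGTG on the opposite strand, 234 bases before the start. Of 35116 RefSeq promoter windows of the same length, 18.5% held ACGTG, 32.2% held GCGTG and 43.2% held either. The BNIP3 window is 81.6% G and C and the CA12 window 64.8%, against a median of 58.0% over all windows, and the letters of both motifs are mostly G and C. Of 11 HIF target or glycolysis genes of the table with a promoter entry, CA12 and BNIP3 included, 8 held either motif. BHLHE41 and IGFBP3, called lower in PC9-GR, were among them. EGLN3, called higher, held none, and nor did TGFA and PDK4, called lower. GENCODE 29 starts CA12 at 63382161, so the CA12 window lies within that gene, and BNIP3 at 131982013, inside the BNIP3 window. The matches counted therefore depend on the start chosen. A match describes letters and not binding.

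CA12 measured 18.6, 22.4 and 20.9 FPKM in the PC9-GR libraries, against 6.50, 4.86 and 4.50 FPKM in the PC9 libraries. The groups did not overlap, and the lowest PC9-GR library lay far above the highest PC9 library, which was replicate 1. The means were 20.6 ± 1.92 FPKM in PC9-GR and 5.29 ± 1.07 FPKM in PC9 (SD, n = 3 each), a 3.90-fold higher level in PC9-GR. On the log2(FPKM + 1) scale, which understates the change of low genes, the difference was 1.79 ± 0.14 (SE; 95% interval 1.47 to 2.11; limma adjusted p = 2.01e-06). The table puts CA12 (ENSG00000074410) on chromosome 15 at 63613576 to 63674360, in a build that it does not name.

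BNIP3 measured 42.8, 52.7 and 47.8 FPKM in the PC9-GR libraries, against 22.3, 21.4 and 23.4 FPKM in the PC9 libraries. Again the groups did not overlap. The PC9 libraries lay close together, with a coefficient of variation of 4.32%, and the PC9-GR libraries were more spread, at 10.3%. The means were 47.8 ± 4.91 FPKM in PC9-GR and 22.4 ± 0.967 FPKM in PC9 (SD, n = 3 each), a 2.14-fold higher level in PC9-GR. The log2 difference was 1.06 ± 0.11 (SE; 95% interval 0.82 to 1.29; limma adjusted p = 7.78e-06). With equal library totals it was 1.84, under quantile normalization 1.79 and under median-ratio scaling 0.76, so its size depended on the scaling. CA12 gave 2.51, 2.05 and 1.51 in the same order. Each scaling was computed over the listed genes alone, so equal totals means equal sums of these genes. Those genes were listed for a difference between the lines, so the scalings are no measure of depth. The table puts BNIP3 (ENSG00000176171) on chromosome 10 at 133781577 to 133795435.

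**Figure D1:**
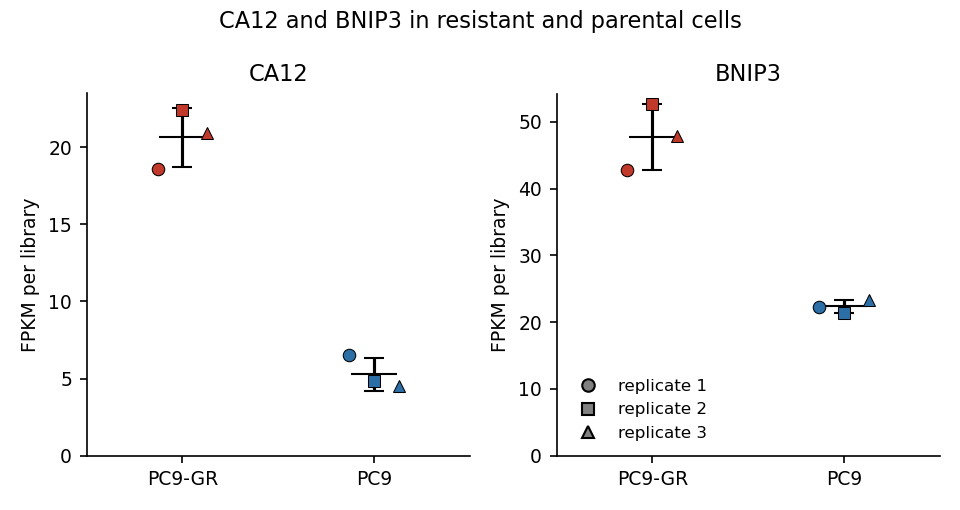
FPKM of CA12 and BNIP3 in each library on axes that start at 0, with PC9-GR in red and PC9 in blue, symbols for the replicate number, and bars for the mean and SD (n = 3). Each PC9-GR library lies above every PC9 library for both genes, with CA12 at 18.6 to 22.4 against 4.50 to 6.50 FPKM and BNIP3 at 42.8 to 52.7 against 21.4 to 23.4 FPKM.

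Both tests are conditioned on how the table was made. The smallest absolute log2 ratio among its genes in the authors' deposited table is 1.0002 and the largest p-value 0.04965, both computed from the same 6 libraries. Tested were the 1207 genes that reached 1 FPKM in 3 or more libraries. Of these, limma called 584 higher in PC9-GR (48.4%) and 619 lower (51.3%), in all 99.7%, so a call alone sets neither gene apart. PC9-GR lay wholly above PC9 for 47.3% of the tested genes and wholly below it for 51.0%. The authors' deposited table gives a log2 ratio of 1.97 for CA12 and 1.09 for BNIP3, with a q-value of 0.000285 for both. Among the 584 genes called higher the median log2 difference was 1.10. CA12 was past it, with a larger difference than 85.6% of them, while BNIP3 was close to the middle, with a larger difference than 44.9%.

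BNIP3 was the more abundant of the pair in every library, and CA12 came closer to it in PC9-GR. FPKM is scaled to gene length, so levels of the 2 genes can be set side by side. The ratio of BNIP3 to CA12 FPKM was 2.31, 2.35 and 2.28 in the PC9-GR libraries, against 3.44, 4.41 and 5.19 in the PC9 libraries. It hardly varied among PC9-GR libraries (2.31 ± 0.035) and was spread among PC9 libraries (4.35 ± 0.879; SD, n = 3 each). On the log2 scale the change in CA12 exceeded that in BNIP3 by 0.89. A scaling factor per library leaves this value as it is, and quantile normalization does not. By an exact permutation test (two-sided) p was 0.1, which is the lowest value possible with 3 against 3 libraries, so 0.05 could not be reached. Relative to the other listed genes, BNIP3 lay above 96.3% of them in PC9-GR and 87.6% in PC9, and CA12 above 90.0% in PC9-GR and 69.7% in PC9.

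Among listed genes known as HIF targets or glycolysis genes, 11 were called higher, CA12 and BNIP3 among them, and 4 lower. The lists were chosen with earlier results of these data known, so these counts only describe the table. Of 78 genes on these lists, which include CA12 and BNIP3, 15 are in the table, all 15 were tested, and 48.4% of all tested genes were called higher. The median log2 difference of the 15, CA12 and BNIP3 included, was 0.94, against -0.63 over all tested genes. That second median lies between genes of opposite sign and turned to 0.29 with no filter on low values and to 0.89 with equal library totals, where the calls over all genes were 649 higher and 417 lower in place of 584 and 619. Equal totals made the log2 difference over 1.5 times larger for 6 of the 11 genes called higher, and over 1.5 times smaller for all 3 of the genes called lower that were still tested. Median-ratio scaling went the other way. The median log2 difference was then 0.79 for genes called higher, against 1.07 as deposited, and -1.20 for those called lower, against -0.99. The HIF target list alone had 12 of 48 genes in the table, 9 of them called higher and 3 lower. In the plot of these genes LOXL2 lies above CA12, and BNIP3 is in the middle of those called higher.

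**Figure D2:**
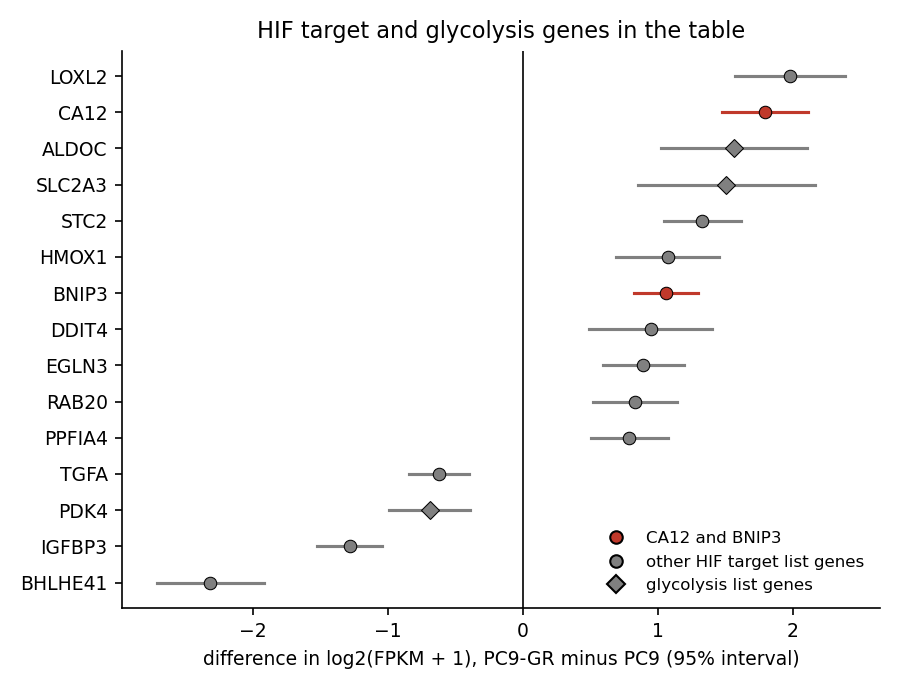
Difference in log2(FPKM + 1), PC9-GR minus PC9, for the 15 HIF target and glycolysis genes in the table, with the 95% interval of limma. CA12 (1.79) and BNIP3 (1.06) are in red, circles are HIF target genes, diamonds are glycolysis genes, and the values run from -2.32 for BHLHE41 to 1.98 for LOXL2.

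Genes for secreted and matrix-acting products changed in both directions. LOXL2, an enzyme that crosslinks collagen, had 33.2, 49.9 and 34.4 FPKM in PC9-GR, against 11.3, 8.39 and 7.66 FPKM in PC9 (log2 difference 1.98 ± 0.18 SE; limma adjusted p = 4.81e-06). Its locus is shared with another listed entry, so its value is uncertain. STC2, a secreted glycoprotein, was 2.55-fold higher in PC9-GR. IGFBP3, which binds insulin-like growth factors, was the most abundant of the 15 and moved the other way, with 176.0 ± 12.5 FPKM in PC9-GR and 430.6 ± 33.7 FPKM in PC9 (SD, n = 3 each). The size of its log2 difference depended on the scaling, at -1.29 as deposited (limma adjusted p = 2.82e-06), -0.49 with equal library totals (0.00284) and -0.23 under quantile normalization (0.0353). Under median-ratio scaling it was larger, at -1.59. TGFA, a ligand of EGFR, was 2.36-fold lower in PC9-GR, and this call was lost with equal library totals (limma adjusted p = 0.0646).

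The oxygen-sensing step itself was represented by EGLN3, a prolyl hydroxylase that marks HIF alpha and is induced by it. It had 10.0, 10.5 and 9.77 FPKM in PC9-GR, against 6.04, 4.50 and 4.53 FPKM in PC9, a 2.01-fold higher level (limma adjusted p = 0.000115). EGLN3 was the only one of 15 HIF pathway regulators in the table, so HIF1A, EPAS1, ARNT and VHL were not analysed here. Intracellular members also rose, among them DDIT4, an mTORC1 inhibitor (2.11-fold), the small GTPase RAB20 (2.18-fold), the haem-degrading HMOX1 (2.26-fold) and the scaffold PPFIA4 (3.27-fold). DDIT4 shares its locus with another listed entry. BHLHE41, a transcriptional repressor of the circadian clock, fell 5.29-fold, and its locus is shared with 3 other listed entries, so its value is uncertain.

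Glucose handling was represented by 3 of 30 genes. SLC2A3, a glucose transporter, had 4.28, 10.7 and 6.79 FPKM in PC9-GR, against 2.83, 1.39 and 1.28 FPKM in PC9. ALDOC, an isoform of the glycolytic enzyme aldolase, had 3.85, 8.36 and 4.59 FPKM in PC9-GR, against 1.51, 1.13 and 0.844 FPKM in PC9. Both were called higher (limma adjusted p = 0.000622 for SLC2A3 and 0.00013 for ALDOC), and the PC9-GR libraries of both were widely spread, with replicate 2 the highest and replicate 1 the lowest. PDK4, a kinase that inhibits pyruvate dehydrogenase, was lower in PC9-GR at 0.478 ± 0.197 FPKM, against 1.38 ± 0.288 FPKM in PC9 (SD, n = 3 each).

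The spread within each line was shared by several of these genes. In PC9-GR, 8 of the 11 list genes called higher had their highest value in replicate 2 (72.7%), against 44.3% of all 584 genes called higher, and CA12 and BNIP3 were among the 8. In PC9, 7 of the 11 were highest in replicate 1 (63.6%), against 37.7% of all genes called higher, and these included CA12 but not BNIP3. SLC2A3, ALDOC, DDIT4, LOXL2, EGLN3 and RAB20 had both features. These are counts within 3 libraries of a line and were not tested. Without PC9-GR replicate 2 the log2 difference was 1.73 for CA12 and 0.99 for BNIP3, and without PC9 replicate 1 it was 1.93 and 1.06, all still called.

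**Figure D3:**
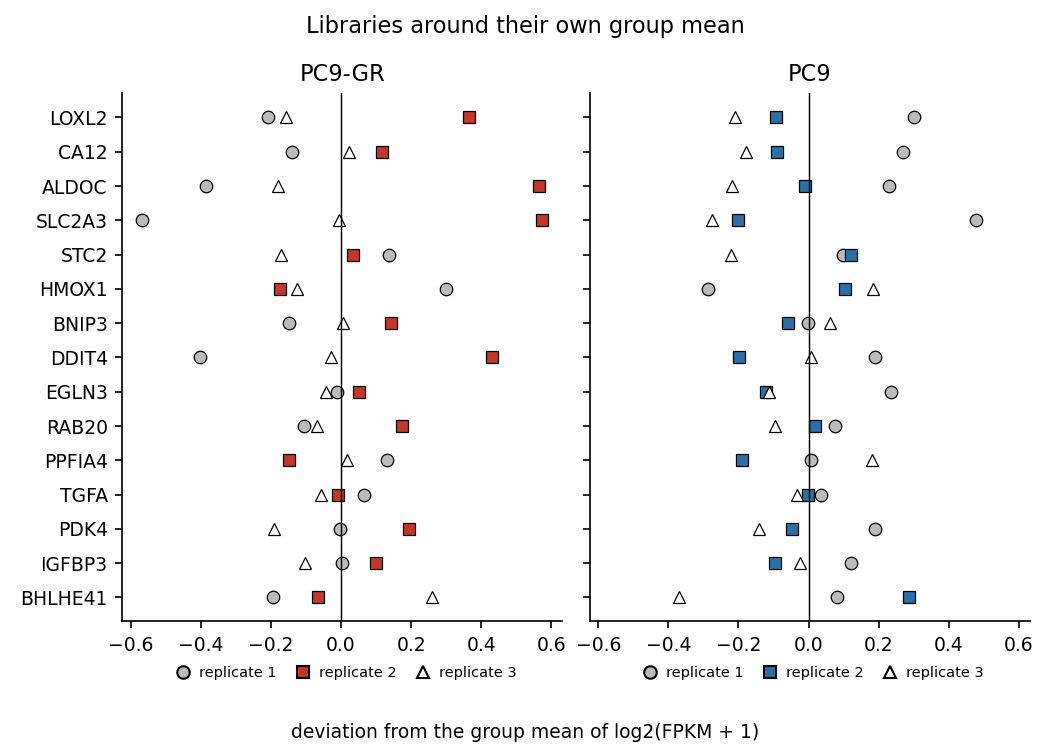
Deviation of each library from the mean of its own group in log2(FPKM + 1), for PC9-GR on the left and PC9 on the right, with genes in the order of their difference between groups. PC9-GR replicate 2 (red squares) lies furthest right for 8 of the 11 genes called higher, CA12 and BNIP3 included, and PC9 replicate 1 (grey circles) for 7.

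Carbonic anhydrases moved in opposite directions. Only CA12 and CA2, of 15 family members, are in the table. CA2, a soluble enzyme of the cytosol, had 14.2, 12.0 and 14.5 FPKM in PC9-GR, against 39.7, 40.5 and 46.6 FPKM in PC9 (log2 difference -1.57 ± 0.11 SE; limma adjusted p = 1.22e-06). Its log2 difference was -0.81 with equal library totals and -1.86 under median-ratio scaling. CA12 was below CA2 in each PC9 library and above it in each PC9-GR library. The ratio of CA12 to CA2 FPKM was 1.31, 1.86 and 1.45 in PC9-GR, against 0.164, 0.120 and 0.0965 in PC9.

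Of 45 genes of acid and base transport, 3 are in the table, 2 called lower and 1 higher, where 51.3% and 48.4% of all tested genes were. SLC4A11, a membrane transporter of the bicarbonate transporter family, was 2.70-fold lower in PC9-GR (5.40, 5.80 and 5.89 FPKM, against 13.9, 16.3 and 15.9 FPKM in PC9). ATP6V0A4, a subunit of the proton pump, was 2.61-fold lower. Equal library totals brought the log2 difference to -0.57 for SLC4A11, against -1.29 as deposited, and to -0.46 for ATP6V0A4, against -1.08. Median-ratio scaling moved both the other way, to -1.55 for SLC4A11 and -1.305 for ATP6V0A4. SLC9A9, a sodium-proton exchanger of endosomes, had 3.16, 1.78 and 1.74 FPKM in PC9-GR, against 1.11, 1.37 and 0.306 FPKM in PC9. Its higher call was lost under quantile normalization (limma adjusted p = 0.0845).

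A pair of ATG8 family genes was called higher together with BNIP3, as were 48.4% of all tested genes. BNIP3 was the only one of 27 mitophagy genes in the table. Of 39 core autophagy genes 3 are listed, and the 2 that were tested, GABARAPL1 and MAP1LC3C, belong to the ATG8 family, whose proteins mitophagy receptors such as BNIP3 bind. GABARAPL1 had 26.1, 35.1 and 25.3 FPKM in PC9-GR, against 14.9, 13.8 and 13.3 FPKM in PC9 (2.07-fold; limma adjusted p = 6.52e-05). MAP1LC3C had 5.05, 9.15 and 7.64 FPKM in PC9-GR, against 1.32, 1.27 and 1.30 FPKM in PC9 (5.62-fold; limma adjusted p = 9.91e-06). The remaining one, ATG9B, a membrane protein of autophagosome formation, missed the filter, with 0.555 ± 0.150 FPKM in PC9-GR and 1.01 ± 0.377 FPKM in PC9 (SD, n = 3 each). The BCL2 family list, to which BNIP3 belongs, had BCL2 as its other listed member of 24. BCL2, which BNIP3 can bind, was lower at 0.678, 0.881 and 0.653 FPKM in PC9-GR, against 2.29, 1.86 and 1.82 FPKM in PC9 (limma adjusted p = 0.000121). With equal library totals the log2 difference was -0.35 for BCL2, against -0.78 as deposited, and 1.745 for GABARAPL1, against 0.98. Median-ratio scaling moved both the other way, to -0.94 for BCL2 and 0.69 for GABARAPL1.

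**Figure D4:**
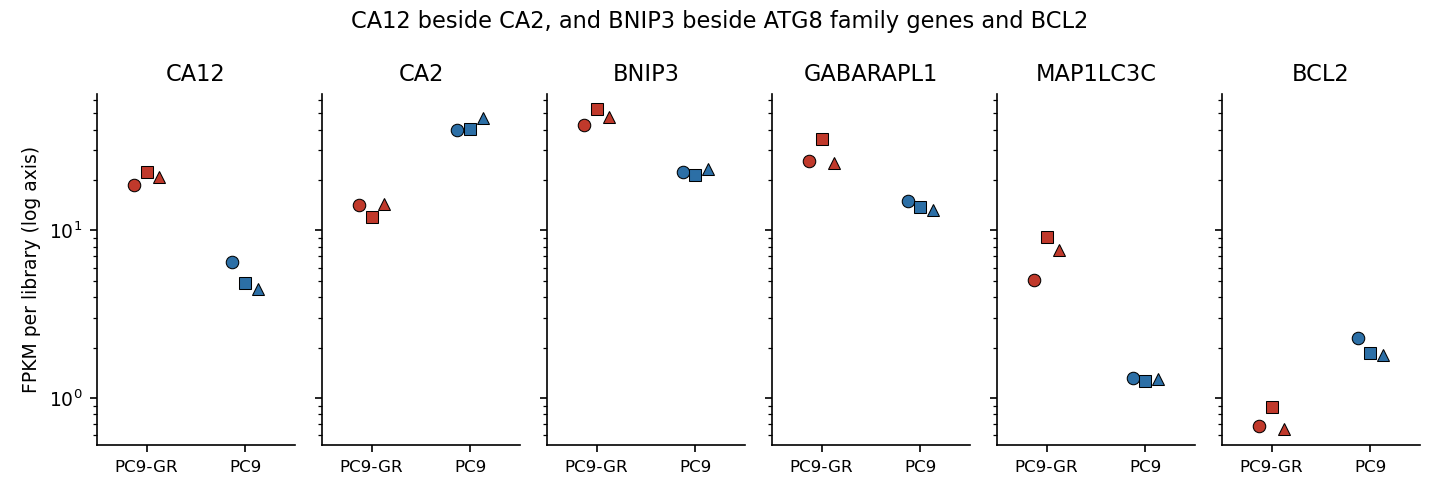
FPKM per library on a shared log axis for CA12 and CA2, and for BNIP3 with the ATG8 family genes GABARAPL1 and MAP1LC3C and with BCL2, with PC9-GR in red on the left of each panel and PC9 in blue on the right. CA12 and CA2 swap order between the lines, GABARAPL1 and MAP1LC3C are higher in PC9-GR as BNIP3 is, and BCL2 is lower.

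Likeness of pattern was measured as the Euclidean distance between log2(FPKM + 1) values over the 6 libraries, after each gene's mean was removed. The 5 genes nearest to CA12 were S100A3 (distance 0.153), a calcium-binding protein, EFEMP2 (0.200), a protein of elastic fibres, RAB3B (0.201), a small GTPase of secretory vesicles, TUBB2B (0.265), a beta tubulin, and NELL2 (0.279), a secreted protein. Those nearest to BNIP3 were MAN2B1 (0.144), a lysosomal mannosidase, RP11-622K12.1 (0.164), an entry with no biotype, PCDHGC3 (0.164), a protocadherin, CCBE1 (0.176), a secreted protein of lymphatic development, and ARSI (0.195), a sulfatase. BNIP3 was the 246th nearest gene to CA12, at a distance of 0.971, so the 2 genes were not among each other's closest in this table. The PCDHGC3 locus spans 182296 bp and is shared with 5 other listed entries, so that value is uncertain.

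Listed genes of both chromosomes mostly had a higher authors' ratio in PC9-GR, 31 of 45 on chromosome 15 (68.9%) and 41 of 51 on chromosome 10 (80.4%), against 51.1% of the whole table. CA12 sits in a run of 9 consecutive listed genes with a higher authors' ratio, from an entry named hsa-mir-7162 to RP11-10O17.1 over 12.3 Mb of chromosome 15. The nearest is APH1B, a subunit of gamma-secretase, whose locus ends 12251 bp from that of CA12. APH1B had 2.95, 5.00 and 5.50 FPKM in PC9-GR, against 1.57, 1.75 and 0.695 FPKM in PC9. DAPK2, a death-associated kinase on the other side at 525 kb, had 3.22, 3.51 and 3.50 FPKM in PC9-GR, against 1.29, 1.76 and 1.75 FPKM in PC9. APH1B, DAPK2 and BBS4, a gene of cilia, were called higher, and the lincRNA RP11-1069G10.2, RP11-299H22.5 and IGDCC4 were below the filter. RP11-10O17.1 had 0.224, 0.229 and 3.12 FPKM in PC9-GR, against 0.270, 0.258 and 0.326 FPKM in PC9. The far end of the run thus rests on PC9-GR replicate 3 alone.

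BNIP3 sits in a shorter run of 5 higher genes, from LINC00601 to DPYSL4, near the end of the listed genes of chromosome 10. JAKMIP3, which lies 123 kb away, had 1.14, 1.05 and 1.09 FPKM in PC9-GR, against 0.392, 0.507 and 0.445 FPKM in PC9, and was called higher. DPYSL4 at 205 kb was below the filter, with 0.948, 0.675 and 0.496 FPKM in PC9-GR, against 0.0419, 0.115 and 0.0584 FPKM in PC9. C10orf91, the next listed gene outward, was called lower. On the inner side C10orf90 and LINC00601 were called higher at distances of 5422.5 and 5671.1 kb, and NPM1P31 beyond them was below the filter with overlapping groups. Counting the member itself and up to 6 listed genes on either side, 11 of 13 were higher around CA12 and 7 of 10 around BNIP3, and the count around BNIP3 is below its chromosome's share. Whether position plays a part in either gene's level was not tested.

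**Figure D5:**
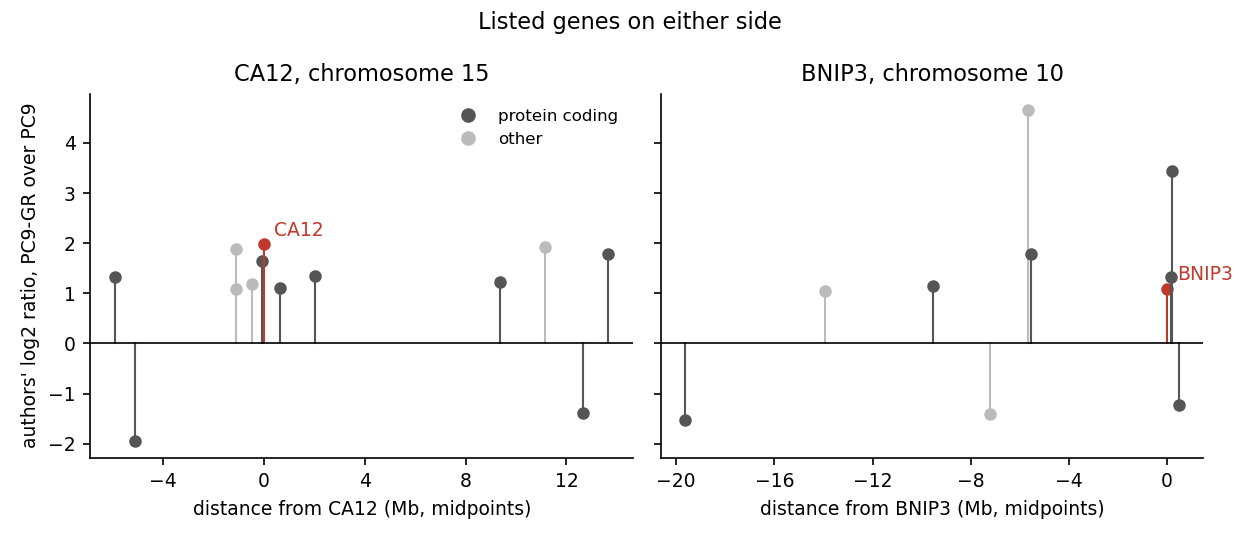
Authors' log2 ratio of PC9-GR over PC9 for CA12, BNIP3 (both red) and up to 6 listed genes on either side, against the distance between midpoints in Mb. Counting CA12 itself 11 of 13 genes are above 0, where 68.9% of listed genes on chromosome 15 are, and counting BNIP3 itself 7 of 10 are, where 80.4% on chromosome 10 are.

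Some features of the 2 loci limit what the values mean. The table gives one value per gene, so the 3 protein isoforms of CA12 in RefSeq are not separated. GENCODE 29 names 39 BNIP3 pseudogenes, 29 of them on chromosome 19, and 2 antisense genes that overlap BNIP3. None of the pseudogenes is in the table. How reads shared with these copies were assigned, and whether strand was used in counting, is not given in the sources used here, so the BNIP3 level is uncertain to that extent. CA12 overlaps no other gene in GENCODE 29 and has no pseudogene named after it. Neither locus is shared with another listed gene. Sharing was checked among listed genes only, so unlisted genes within a locus would be missed. Wide loci such as those of CA2 (153887 bp), ALDOC (189704 bp) and EGLN3 (538545 bp) leave those values uncertain to that extent.

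The labelled epithelial identity could not be checked in full. Of 19 epithelial and lung markers only CLDN1, a tight junction protein, is in the table, and it was lower at 26.0 ± 5.02 FPKM in PC9-GR and 86.8 ± 11.0 FPKM in PC9 (SD, n = 3 each). Its log2 difference was -1.71 as deposited, -0.925 with equal library totals and -2.005 under median-ratio scaling. Of 20 markers of fibroblasts, endothelium and blood cells 6 are in the table, 5 called higher and 1 (LYZ) below the filter. Of all tested genes 48.4% were called higher and 51.3% lower, so a call alone does not set these markers apart. Their summed level was 48.5 to 60.8 FPKM in PC9-GR libraries and 20.6 to 24.7 FPKM in PC9 libraries, mostly from CD68, a lysosomal protein that was 2.07-fold higher in PC9-GR. The limma adjusted p of CD68 was 1.08e-05, while the authors' q-value was 0.0699. Its listed locus spans 71510 bp, and unlisted genes within it were not checked. Without CD68 the sum was 14.1 to 21.5 FPKM in PC9-GR and 3.18 to 5.67 FPKM in PC9. PDGFRB, a receptor of fibroblasts and pericytes, was 34.6-fold higher in PC9-GR, and the myeloid integrins ITGAX and ITGAM were 23.8-fold and 12.7-fold higher. These folds rest on low PC9 values. The means were 3.28, 2.83 and 7.25 FPKM in PC9-GR, against 0.0948, 0.119 and 0.570 FPKM in PC9. CORO1A, an actin-binding protein of blood cells, was 1.94-fold higher. LYZ, below the filter, went the other way, at 0.142 ± 0.125 FPKM in PC9-GR and 1.09 ± 0.459 FPKM in PC9 (SD, n = 3 each). PTPRC, PECAM1, VWF and COL1A1 were not analysed here. The part of these markers in the CA12 and BNIP3 differences was not tested.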

How the data were processed

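RNA came from 3 PC9-GR and 3 PC9 cultures and was made into libraries with a strand-specific kit, per the labels. TopHat and Cufflinks are named in the submitters' processing notes; versions, settings, genome build and annotation: not given in the sources used here. FPKM values stand in the table per library and per group, per the file headers. The authors' coefficient of variation, ratio, log2 ratio, p-value and q-value are further columns, per the file headers. The table has no read counts, so depth is unknown.

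Deposited FPKM values were taken to log2(FPKM + 1) for the 1207 genes that reached 1 FPKM in 3 or more of the 6 libraries. limma 3.58.1 in R 4.3.3 fitted group alone, with a variance trend, two-sided, Benjamini-Hochberg adjustment over all 1207 genes and calls under 0.05. The step was also run on simulated data in which most genes were unchanged. Here 99.7% of tested genes were called, so that run gives no error rate for these data. Other steps used Python 3.11.15. No batch is labelled. Alternatives were other pseudocounts, filters and scalings, no trend, a replicate block, and leaving out each library. The scalings were computed over the listed genes only, and equal library totals means equal sums of these genes.

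CA12, BNIP3 and the gene lists were chosen with earlier results of these data known. A member of the HIF target list is not reported here and was left out of the list's counts. Named genes are the listed members of the HIF, glycolysis, carbonic anhydrase, acid-base, mitophagy, autophagy and BCL2 lists, the 5 nearest patterns and the 3 nearest listed genes per side; markers, oestrogen-responsive genes and ends of runs are named beyond this rule. Of 1655 gene identifiers matched to GENCODE 29 (GRCh38), 54 lie inside the table's locus, so coordinates were not mixed. Promoters were matched by symbol for 2 of 2 genes.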

Additional observations from a re-analysis of the deposited data

How the results depend on the processing

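CA12 and BNIP3 kept their direction and their call under each of the 14 alternatives run for each gene. Leaving out each library in turn gave log2 differences of 1.703 to 1.927 for CA12 and 0.986 to 1.132 for BNIP3, and the other settings gave 1.51 to 2.51 and 0.76 to 1.84. Adjusted p ran from 2.24e-07 to 3.78e-05 for CA12 and from 1.63e-07 to 7.07e-05 for BNIP3 (limma). The difference between the 2 genes' changes was 0.75 to 1.05 without each library and 0.74 with a pseudocount of 1. Quantile normalization brought the 2 changes closer together, at log2 differences of 2.05 for CA12 and 1.79 for BNIP3. With a replicate block the limma differences were 1.79 and 1.06, still called, and the difference between changes stayed at 0.89 (exact sign-flip p = 0.25, the smallest possible). Same-numbered libraries showed no strong shared deviation (correlations -0.098, 0.082 and 0.164 over tested genes). These correlations cannot tell whether same-numbered cultures were handled together. A filter at 5 FPKM, which tests fewer genes (629), left 234 genes called higher and 393 lower, and among the HIF target and glycolysis genes 7 called higher and 2 lower. With equal library totals 2 of these were also called lower, as TGFA lost its call and PDK4 fell below the filter. The median log2 difference over shared tested genes moved by 0.44 with equal totals, 0.24 under quantile normalization and -0.15 under median-ratio scaling. That median lies between genes of opposite sign, so single genes could move further. BNIP3 went from 1.06 to 1.84 with equal totals and to 0.76 under median-ratio scaling. The listed genes summed to 16705 to 17114 FPKM in PC9-GR and 28346 to 30541 FPKM in PC9. Of 92 alternative values, 87 stayed the same by direction and call or within 1.5 times for counts, and 0 reversed. Depth is unknown, so no counting error can be given, and 3 libraries per line limit the precision.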

Other observations

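Genes described as oestrogen-responsive in breast cancer cells, a group to which CA12 belongs, moved in both directions. Of 24 such genes 7 are in the table, and of the 6 tested CA12 and STC2 were called higher and AGR2, FOXA1, SLC39A6 and KRT13 lower. Of all tested genes 48.4% were called higher and 51.3% lower. The secreted disulfide isomerase AGR2 had 2.68, 3.47 and 3.90 FPKM in PC9-GR, against 22.6, 46.0 and 41.7 FPKM in PC9. GREB1, a cofactor of the oestrogen receptor, was below the filter at 0.778, 0.802 and 0.792 FPKM in PC9-GR, against 0.229, 0.124 and 0.157 FPKM in PC9, without overlap. ESR1, which encodes the receptor, was not analysed here.

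The coefficient of variation in the authors' deposited table did not follow from the library values. For BNIP3 in PC9-GR the authors' deposited table gives 0.512, while the SD of the 3 library FPKM values over their mean is 0.103. In PC9 the authors' deposited table gives 0.0279 for BNIP3, against 0.0432 from the libraries. For CA12 it gives 0.145 in PC9-GR and 0.144 in PC9, against 0.0932 and 0.202 from the libraries. Only 169 of the 1705 listed genes have a larger authors' value in PC9-GR than BNIP3. Over the table the authors' median was 0.058 in PC9-GR and 0.043 in PC9, against 0.171 and 0.173 from the libraries. How the authors computed it is not given in the sources used here.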
